A study of Mus musculus with 6 samples.

Results

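The genes described here are 32 genes of meiosis, testis, early embryo and placenta chosen as genes that body cells keep silent. They were taken by symbol from a table of 23420 genes, and all 32 had a row. The RNA came from skeletal muscle satellite cells, the stem cells of muscle, in 3 Dnmt1 KO and 3 control samples. The mice were male, on a C57BL/6 background and 7 weeks old, and the labels name Dnmt1 flox mice and Pax7-CreERT2, a Cre recombinase made where the satellite cell gene Pax7 is active and switched on by tamoxifen, as used to generate the mice. Tamoxifen or vehicle was given on 5 consecutive days. The labels do not say which samples received which, nor whether the control mice carried Cre. Separate animals are not named for the samples either, so the p-values here measure a spread that may be technical.

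Most of these genes serve germ cells. In meiosis homologous chromosomes are joined by the synaptonemal complex, broken and recombined, and the genes for this machinery are off in nearly all body tissues. Many of their promoters hold CpG sites that are methylated in body cells, and Dnmt1 copies that methylation onto each new DNA strand. A few members act outside meiosis, such as Elf5, a transcription factor of the trophoblast, the cell layer that builds the placenta, and Zfp42 and Dppa3, which mark pluripotent or very early embryonic cells.

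Reads of these genes were few in every library. Of the 32 genes, 11 had no read in any of the 6 libraries (34.4%, against 34.9% of all genes of the table), and 31 never had more than 10 reads in a library. The highest count was 15 reads, for Hsf2bp in control replicate 2. Reads were found for 9, 15 and 13 of the 32 genes in Dnmt1 KO replicates 1, 2 and 3, against 5, 7 and 6 in control replicates 1, 2 and 3. Every Dnmt1 KO library thus held reads of more members than every control library. Over all genes of the table, 54.4%, 57.2% and 54.5% were read in Dnmt1 KO replicates 1, 2 and 3 and 53.3%, 54.3% and 55.3% in the controls. The Dnmt1 KO libraries were the shallower ones, with 954786, 1347051 and 1102065 reads, against 1403242, 1437762 and 2021725 in the controls. Thinned to 954786 reads each, the libraries would be expected to hold reads of 9, 13.3 and 11.8 members in the Dnmt1 KO samples and of 4.58, 6.21 and 3.66 in the controls. In bulk RNA, reads from few cells and little RNA in many cells cannot be told apart.

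**Figure D1:**
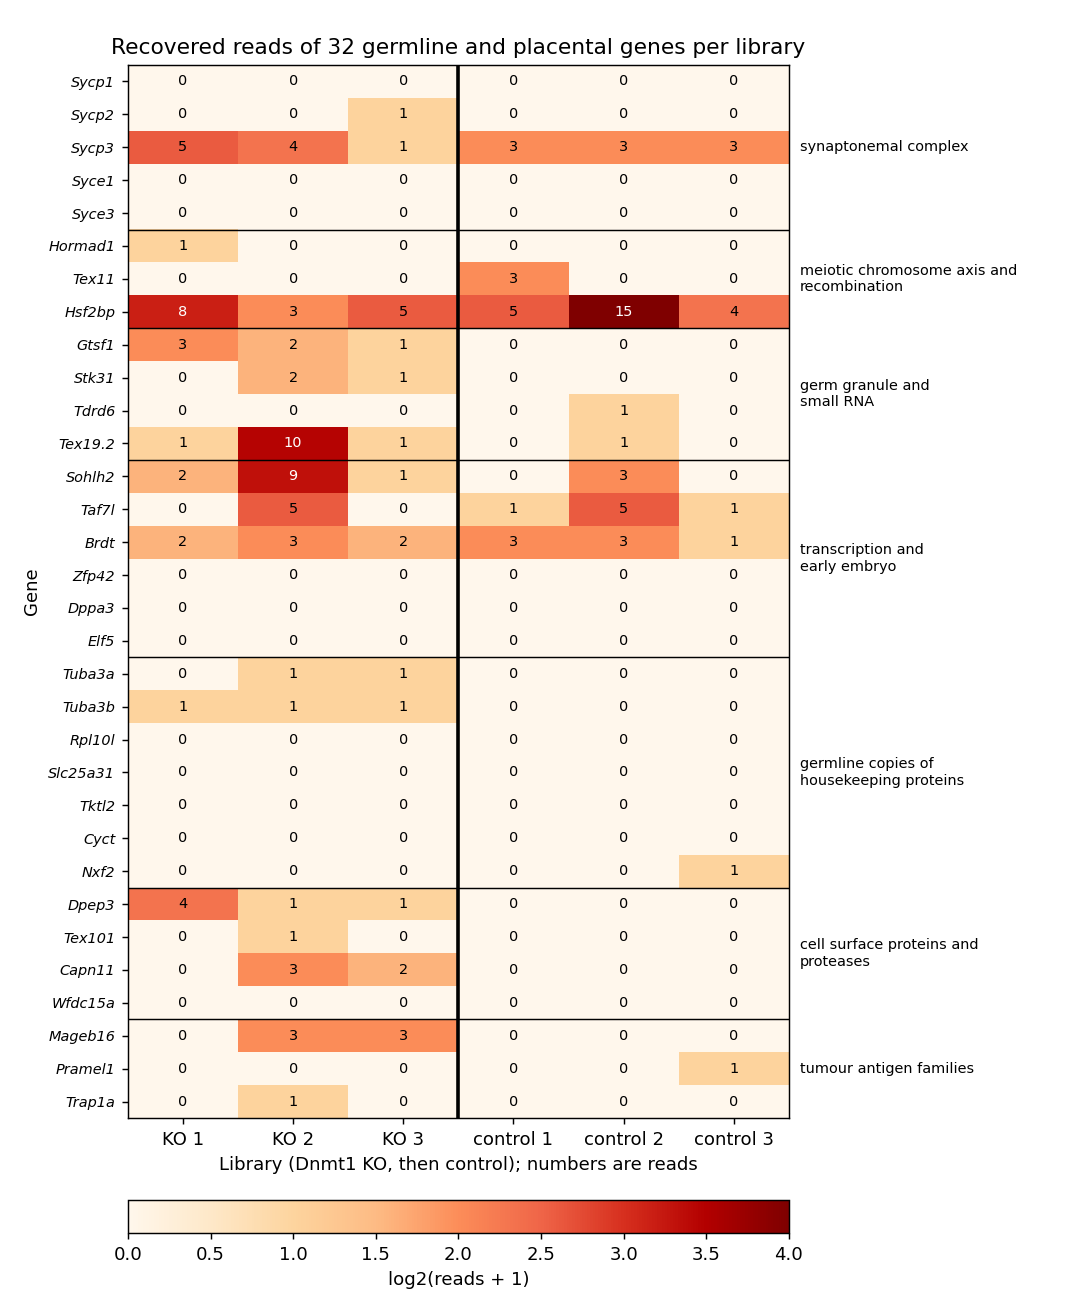
Recovered reads of each of the 32 genes (rows, grouped by role) in the 3 Dnmt1 KO libraries (left) and the 3 control libraries (right), with the read count printed in each cell and the colour giving log2(reads + 1). Most cells hold 0, and the cells with 8 or more reads belong to Hsf2bp, Tex19.2 and Sohlh2.

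Summed over the 32 genes, there were 28.3, 36.4 and 19.1 RPM (reads per 1000000 reads of the library) in Dnmt1 KO replicates 1, 2 and 3, against 10.7, 21.6 and 5.44 in control replicates 1, 2 and 3. The groups overlapped in this sum, since control replicate 2 lay above Dnmt1 KO replicate 3. Hsf2bp gave 15 of the 31 reads of control replicate 2. Without Hsf2bp the sums were 19.9, 34.1 and 14.5 RPM in the Dnmt1 KO libraries and 7.13, 11.1 and 3.46 in the controls, with no overlap. The 95% Poisson intervals, which cover counting error only, still met there: 8.3 to 23.6 in Dnmt1 KO replicate 3 and 6.36 to 18.1 in control replicate 2. Hsf2bp was left out after its values were seen, and its reads in control replicate 2 had made the overlap. Tex19.2 and Sohlh2, with 10 and 9 reads in Dnmt1 KO replicate 2, were kept. Nothing is therefore read from the separation without Hsf2bp.

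**Figure D2:**
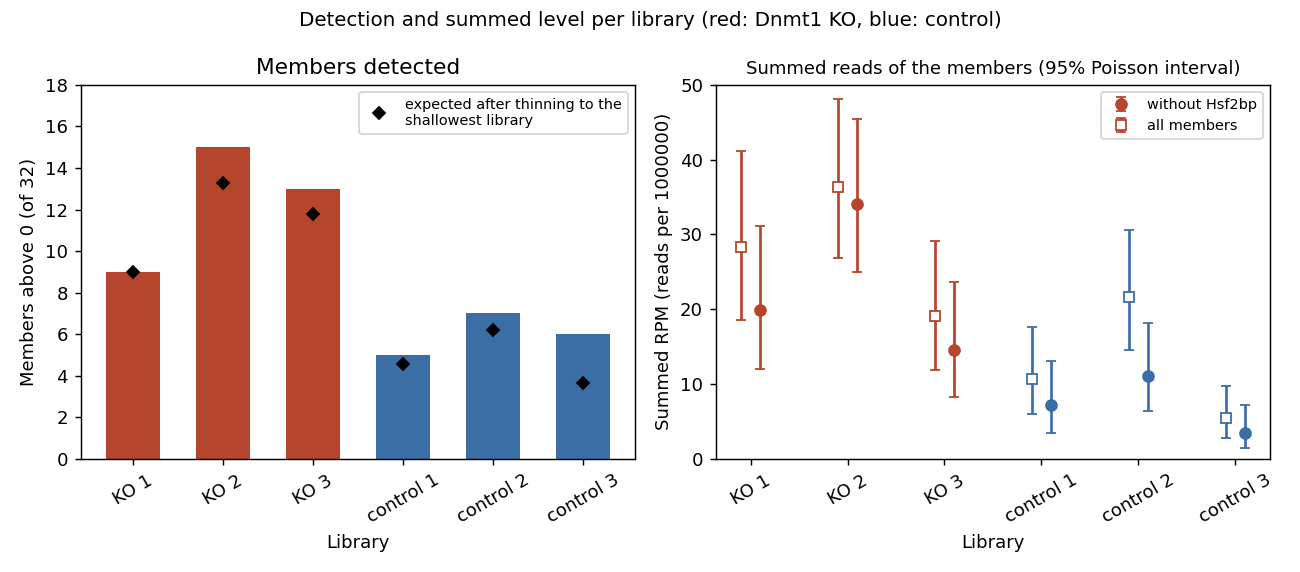
Left, the number of the 32 genes with a read in each library (bars; diamonds give the number expected after thinning to 954786 reads). Right, their summed RPM with 95% Poisson intervals, with Hsf2bp (open squares) and without it (filled circles). Bars for the Dnmt1 KO libraries stand at 9 to 15 and those for the controls at 5 to 7.

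By group, 17 members had reads in at least 1 Dnmt1 KO library and 10 in at least 1 control library. Sycp3, Brdt, Hsf2bp and Taf7l were read in all 3 controls. Reads of Sycp3 in a stretch shared with Chpt1 cannot be told apart, so only Brdt, Hsf2bp and Taf7l are taken as not fully silent there. The controls had no read of 22 members, and 11 of these 22 (50%) had reads in a Dnmt1 KO library. Over all 9330 genes at 0 in every control, the share was 12.3%. All 3 Dnmt1 KO libraries had reads of 3 of the 22 (13.6%), against 1.10% of all genes at 0 in the controls. In the other direction, the Dnmt1 KO libraries had no read of 15 members, and 4 of these (26.7%) had reads in a control, against 9.07% of all 8995 such genes. The members thus exceeded the share over all genes in both directions. The 11 genes read only in Dnmt1 KO samples held 35 reads in all, and the 4 read only in controls held 6. By library, 4, 9 and 8 of the 11 were read in Dnmt1 KO replicates 1, 2 and 3. Counting a library only at a value of at least 2 units gave 6 genes for the Dnmt1 KO samples, 0 of them in all 3 libraries, and 1 gene for the controls. The 6 were 5 of the 11 and Tex19.2, whose control value lies below that threshold. Summed myocyte markers were uneven in both groups: 10654 in control replicate 2, against 527 and 391 in control replicates 1 and 3. They were 4138 and 3491 in Dnmt1 KO replicates 1 and 2, against 839 in replicate 3. Without control replicate 2, a Dnmt1 KO library had reads of 13 of the 25 members at 0 in the controls (52.0%). The share over all such genes was 15.3%. This setting gave the highest share of members with a library left out. Without control replicate 1 or 3 it was 47.8% or 45.8% (14.1% or 15.1% of all genes). Without Dnmt1 KO replicate 1, 2 or 3 it was 45.5%, 40.9% or 45.5% (10.3%, 7.87% or 10.3% of all genes).

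**Figure D3:**
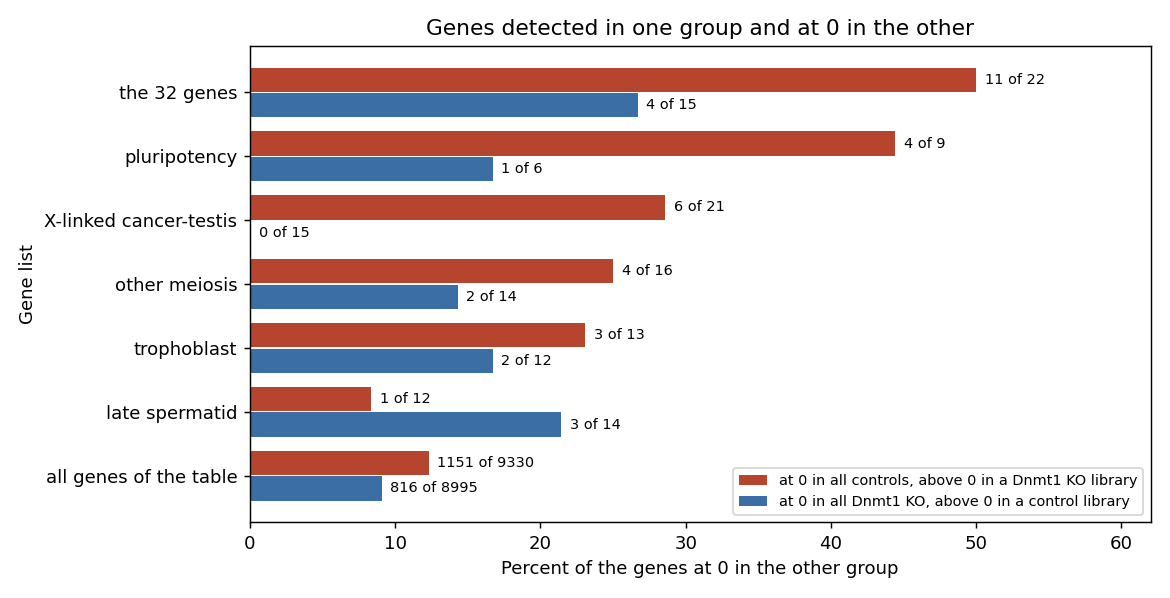
Percent of genes at 0 in all controls that had a read in a Dnmt1 KO library (red) and of genes at 0 in all Dnmt1 KO libraries that had a read in a control (blue), for the 32 genes, for 5 other lists and for all genes of the table. Counts stand beside the bars; the 32 genes are at 11 of 22 and 4 of 15, and all genes at 1151 of 9330 and 816 of 8995.

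No member passed the test for a difference between the groups. The deposited values are read counts multiplied by 1 factor per library, so that 1 read is worth 0.691 to 1.434 units. Only 9 of the 32 members reached 1 unit in 3 or more libraries and could be tested with limma on log2(value + 1), and 4 of these 9 passed that filter only through their Dnmt1 KO values. Of the 9, 0 were called higher and 0 lower at an adjusted p under 0.05, while limma called 1.67% of all 12591 tested genes higher and 0.0953% lower. At an unadjusted p under 0.05 there were 4 of the 9 (15.5% of all tested genes). They were the same 4 genes that the filter admitted through their Dnmt1 KO values alone, so nothing is read from that count. With any Dnmt1 KO library left out, these 4 could not reach 1 unit in 3 libraries and were not tested. On the recovered reads of 4 libraries, edgeR tested 1 member and DESeq2 tested 2, with 0 called by either and 0 at an unadjusted p under 0.05. These fits left out Dnmt1 KO replicate 2, the library with the most member reads. In the authors' own test, 0 of the 32 members had a q-value under 0.05, against 351 of all 23420 genes. The lowest q-value of a member was 0.347, for Tex19.2. A p-value under 0.05 in that test was found for 4 members. The same count over all genes was not made, so nothing is read from these 4. For a single gene, an exact two-sided permutation test of 3 against 3 cannot go below a p of 0.1.

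The groups of 4 members did not overlap, with Dnmt1 KO higher (4 of 32, against 7.22% of all genes of the table), and 0 members did not overlap with Dnmt1 KO lower (4.33% of all genes). These 4 were Gtsf1, Dpep3, Tuba3b and Tex19.2. In the first 3 the controls had no read at all. The windows around the start of these 3 genes are shown because they were the members read in every Dnmt1 KO library and in no control. They run from 250 bases before to 50 bases after the start in RefSeq (build GRCm38.p6), and capitals mark each CpG, the site that Dnmt1 methylates:
Dpep3 (chr8:105979370-105979669, minus strand): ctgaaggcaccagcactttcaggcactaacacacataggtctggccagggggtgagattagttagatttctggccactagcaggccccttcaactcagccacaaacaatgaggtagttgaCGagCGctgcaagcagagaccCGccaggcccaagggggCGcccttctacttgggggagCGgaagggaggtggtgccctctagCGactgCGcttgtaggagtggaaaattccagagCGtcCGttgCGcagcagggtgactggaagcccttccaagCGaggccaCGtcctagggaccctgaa
Gtsf1 (chr15:103430378-103430677, minus strand): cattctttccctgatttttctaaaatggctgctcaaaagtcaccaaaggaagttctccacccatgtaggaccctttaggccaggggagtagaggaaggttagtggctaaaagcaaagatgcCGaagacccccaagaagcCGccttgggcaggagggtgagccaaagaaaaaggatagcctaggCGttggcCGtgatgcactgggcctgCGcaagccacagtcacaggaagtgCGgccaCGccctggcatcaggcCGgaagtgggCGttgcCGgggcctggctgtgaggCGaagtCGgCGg
Tuba3b (chr6:145615713-145616012, plus strand): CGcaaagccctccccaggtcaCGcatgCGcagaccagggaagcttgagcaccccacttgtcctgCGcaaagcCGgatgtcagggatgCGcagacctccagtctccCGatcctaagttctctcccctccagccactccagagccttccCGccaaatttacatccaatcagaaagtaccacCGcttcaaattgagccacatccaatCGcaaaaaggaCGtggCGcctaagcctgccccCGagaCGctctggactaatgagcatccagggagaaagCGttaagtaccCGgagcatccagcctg
The windows held 12, 13 and 16 CpG for Dpep3, Gtsf1 and Tuba3b.

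Synaptonemal complex genes were at or near 0, apart from Sycp3. Of the 5 genes, 2 had reads in Dnmt1 KO samples and 1 in controls. Sycp1, which forms the transverse filaments, and Syce1 and Syce3 of the central element had no read in any library. Sycp2, a protein of the lateral element, had 1 read, in Dnmt1 KO replicate 3. Sycp3, the other lateral element protein, had values of 7.17, 4.01 and 1.23 in the Dnmt1 KO libraries and 3.01, 2.86 and 2.07 in the controls, or 4.14 ± 2.97 in Dnmt1 KO samples and 2.65 ± 0.502 in controls (SD, n = 3 each). It was thus read in all 6 libraries with overlapping groups (log2 fold change 0.31, SE 0.55, adjusted p = 0.826, limma). Sycp3 lies on chromosome 10 at 88459587 to 88473236 (mm10), and 80 of its exonic bases in the table overlap Chpt1 on the opposite strand. In GENCODE transcripts, which include longer forms, 43.0% of the 50-base words of Sycp3 occur in Chpt1. Chpt1 had 48, 50 and 39 reads in the Dnmt1 KO libraries and 38, 62 and 50 in the controls. Whether the counting used strand is not given, so reads in the shared stretch cannot be told apart.

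The 3 genes of the meiotic chromosome axis and of recombination differed among themselves. Hormad1, which watches over chromosome pairing on the axis, had 1 read, in Dnmt1 KO replicate 1. Tex11, an X-linked gene that promotes crossovers, had 3 reads in control replicate 1 and none elsewhere. Hsf2bp, which helps to bring the recombination protein BRCA2 to meiotic breaks, had values of 11.5, 3.01 and 6.15 in the Dnmt1 KO libraries and 5.02, 14.3 and 2.77 in the controls. Its means were 6.88 ± 4.28 in Dnmt1 KO samples and 7.36 ± 6.11 in controls (SD, n = 3 each). The groups overlapped over most of their range (log2 fold change 0.02, SE 0.61, adjusted p = 0.994, limma). It had the most reads of any member, 16 in the Dnmt1 KO group and 24 in the control group, or 4.7 and 4.94 RPM.

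Among the genes of germ granules and small RNAs, reads lay mostly in Dnmt1 KO samples, 21 against 2 in the controls. Dnmt1 KO replicate 2 held 14 of the 21, and without it there were 7. Gtsf1, a factor of the piRNA pathway that silences transposons in germ cells, had values of 4.3, 2.01 and 1.23 in the Dnmt1 KO libraries, or 3, 2 and 1 reads, and 0 in all 3 controls. Its mean of 2.51 ± 1.6 (SD, n = 3) was 2.93 times the control floor, which is 0.859 units (3 reads in the 3 control libraries together). This ratio leaves out the counting error of the mean. It did not pass the test (log2 fold change 1.72, SE 0.54, adjusted p = 0.162, limma), and its 6 reads, 1.76 RPM with a 95% Poisson interval of 0.647 to 3.84, overlap the upper bound of 0.759 for 0 reads in the controls. Without Dnmt1 KO replicate 1 the mean was 1.88 times the control floor. A fold change fitted against zeros depends on the pseudocount: with 0.1 in place of 1 it was 4.53 (adjusted p = 0.161). Gtsf1 lies on chromosome 15 at 103402459 to 103430427 (mm10), and none of its 50-base words occurs in transcripts of other genes.

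Tex19.2, the close relative of the germline gene Tex19.1, had values of 1.43, 10 and 1.23 in the Dnmt1 KO libraries and 0, 0.952 and 0 in the controls. These were 1, 10 and 1 reads in Dnmt1 KO samples and 0, 1 and 0 in controls, so that Dnmt1 KO replicate 2 held most of them. The lowest Dnmt1 KO libraries and control replicate 2 were equal at 1 read, and the groups lay apart only in scaled values (log2 fold change 1.65, SE 0.70, adjusted p = 0.293, limma). Tex19.2 lies on chromosome 11 at 121116215 to 121118677 (mm10) and Tex19.1 on the same chromosome at 121146143 to 121148313. Tex19.1 had values of 58.8, 81.3 and 50.5 in the Dnmt1 KO libraries and 2.01, 0 and 1.38 in the controls (adjusted p = 0.00152, limma). The pair share few sequences: 2.5% of the 50-base words of Tex19.2 occur in Tex19.1. Stk31, a kinase with a tudor domain found in germ granules, had 2 reads in Dnmt1 KO replicate 2, 1 in replicate 3 and 0 in the controls. Tdrd6, a tudor protein of the chromatoid body of spermatids, had 1 read, in control replicate 2.

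Transcription and early embryo genes were either read in both groups or not at all. Sohlh2, a factor of early germ cell differentiation, had values of 2.87, 9.03 and 1.23 in the Dnmt1 KO libraries and 0, 2.86 and 0 in the controls, or 12 reads in the Dnmt1 KO group and 3 in the control group. Its groups overlapped through control replicate 2 (log2 fold change 1.50, SE 0.74, adjusted p = 0.373, limma), and without that library the adjusted p was 0.0983. Dnmt1 KO replicate 2 held 9 of the 12 reads, and without it the log2 fold change was 0.91 (adjusted p = 0.76, limma). Brdt, a testis protein that reads acetylated histones, had values of 2.87, 3.01 and 2.46 in the Dnmt1 KO libraries and 3.01, 2.86 and 0.691 in the controls. Its 7 reads in each group gave a log2 fold change of 0.35 (SE 0.51, adjusted p = 0.786, limma). Taf7l, a germ cell relative of a TFIID subunit, had values of 0, 5.02 and 0 in the Dnmt1 KO libraries and 1, 4.76 and 0.691 in the controls (log2 fold change -0.57, SE 0.80, adjusted p = 0.774, limma). The second library of each group thus held most of its reads. Zfp42, Dppa3 and Elf5 had no read in any library.

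Of the 7 germline copies of housekeeping proteins, 2 were read in Dnmt1 KO samples only. Tuba3b, an alpha-tubulin gene of the testis, had values of 1.43, 1 and 1.23 in the Dnmt1 KO libraries, 1 read each, and 0 in all controls (log2 fold change 1.15, SE 0.50, adjusted p = 0.308, limma). Its 3 reads amount to 0.881 RPM (95% Poisson interval 0.182 to 2.58) in the Dnmt1 KO group, and 0 reads in the control group have an upper bound of 0.759. The intervals overlap. Tuba3a, its near copy on the same chromosome, had 0, 1 and 1 reads in the Dnmt1 KO libraries and 0 in the controls. Of the 50-base words, 29.5% of Tuba3b and 35.3% of Tuba3a occur in other genes, mostly in each other, so the counts of the pair may be split. Nxf2, an X-linked relative of the mRNA exporter, had 1 read, in control replicate 3. Rpl10l, the testis copy of a ribosomal protein, Slc25a31, a germ cell ADP/ATP carrier, Cyct, the testis cytochrome c, and Tktl2, a relative of transketolase, had no read in any library.

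Genes of cell surface proteins and proteases were read in Dnmt1 KO samples only, with 12 reads there and 0 in controls over 4 genes. Dpep3, a membrane dipeptidase of testis germ cells, had values of 5.73, 1 and 1.23 in the Dnmt1 KO libraries and 0 in all controls. Its 6 reads were thus spread as 4, 1 and 1. The mean of 2.66 ± 2.67 (SD, n = 3) was 3.09 times the control floor, or 1.3 times without Dnmt1 KO replicate 1. Its interval is that of Gtsf1 and likewise overlaps the control bound, and the test was not passed (log2 fold change 1.64, SE 0.60, adjusted p = 0.228, limma). Capn11, a testis calpain, had 0, 3.01 and 2.46 units in the Dnmt1 KO libraries and 0 in the controls, and was too rarely detected to test. Its mean was 2.12 times the control floor (1.43 times without Dnmt1 KO replicate 2, 3.19 times without replicate 1). Its interval of 0.477 to 3.43 RPM overlaps the control bound of 0.759. Tex101, a germ cell surface protein that binds Dpep3, had 1 read, in Dnmt1 KO replicate 2. Wfdc15a, a small protein of the protease inhibitor type, had no read in any library.

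The tumour antigen families, named for genes of testis and placenta that tumours switch on, gave 7 reads in Dnmt1 KO samples and 1 in controls. Mageb16, on the X chromosome at 79623231 to 79671435 (mm10), had 0, 3.01 and 3.69 units in the Dnmt1 KO libraries and 0 in all controls. Its mean of 2.23 ± 1.96 (SD, n = 3) was 2.60 times the control floor. That ratio was 1.75 without Dnmt1 KO replicate 3, 2.15 without replicate 2 and 3.9 without replicate 1. Its interval of 0.647 to 3.84 RPM overlaps the control bound of 0.759. Of its 50-base words, 55.1% occur in other transcripts, the pseudogenes Mageb16-ps1 and Mageb16-ps2, so the source of these reads is uncertain. Trap1a, an X-linked antigen of placenta and testis, had 1 read, in Dnmt1 KO replicate 2, and Pramel1, of the PRAME family, had 1 read, in control replicate 3.

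Per length, the Dnmt1 KO group had its highest levels among members in Sycp3 (2.62 RPM per kilobase), Gtsf1 (2.44), Tex19.2 (1.72), Hsf2bp (1.64) and Sohlh2 (1.5). In the control group Hsf2bp (1.72) and Sycp3 (1.65) led and Taf7l had 0.744. Tex19.2 stood at 0.101 and Sohlh2 at 0.263 there. These values rest on 6 to 16 reads in the Dnmt1 KO group and on 1 to 24 in the control group, and the counting intervals of neighbours in either order overlap. The 11 genes without a read had 0 of 8266631 reads, which allows up to 0.363 RPM.

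The promoter windows of RefSeq covered 29 of the 32 genes, 5 of them with several windows, of which the one with most CpG is used here. The 29 genes had a median of 14 CpG in 300 bases, from 2 in Tex19.2 to 29 in Stk31. The median was 15 over all 16375 genes of the table with a window and 3 over genes at 0 in all 6 libraries. Within the members, the ranges of CpG counts overlapped between the classes. The 11 members read only in Dnmt1 KO samples had a median of 12 (3 to 29), and the 10 without any read a median of 13.5 (8 to 22). The 6 read in both groups had a median of 17 (2 to 23), and the 2 with a window that were read only in controls had 20 each. Windows with 15 or more CpG belonged to 5 of the 6 read in both groups and 2 of the 2 read only in controls. They belonged to 4 of the 11 read only in Dnmt1 KO samples and 3 of the 10 without any read.

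**Figure D4:**
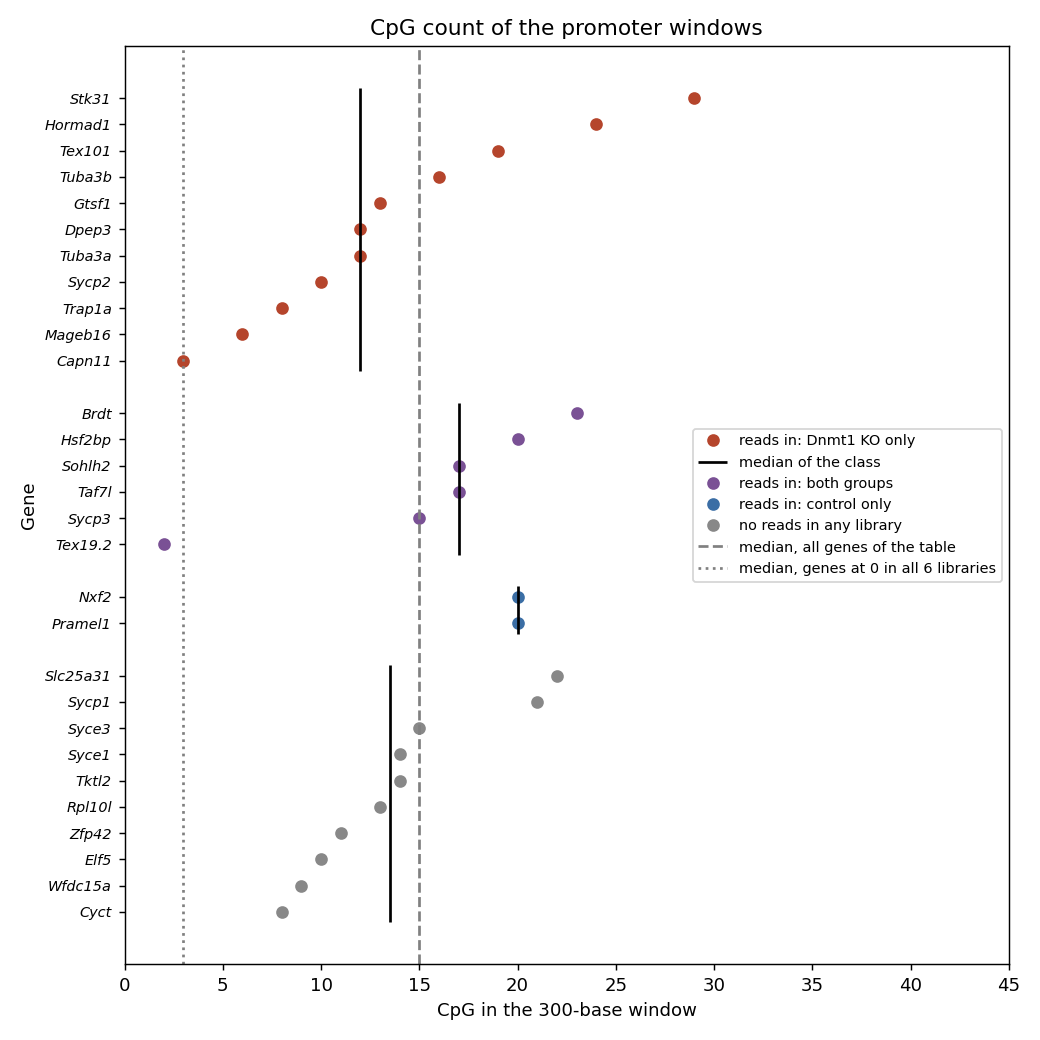
CpG count of the 300-base window at the start of 29 genes, grouped by the samples in which they were read; black lines give the median of each class, the dashed line that of all genes of the table (15) and the dotted line that of genes at 0 in all 6 libraries (3). The classes overlap: genes read in Dnmt1 KO samples only run over 3 to 29 CpG and genes without a read over 8 to 22.

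The windows were also searched on both strands for TCCCGC, the core bound by E2F6, and for CACGTG, the E-box bound by MGA with MAX, proteins of a complex known to repress germline genes. Both motifs hold a CpG. TCCCGC was found in 9 of the 29 genes (31.0%), against 27.6% of the table's genes, and in 20.0% of all 32851 windows. CACGTG was found in 8 of 29 (27.6%), against 8.37% of the table's genes and 7.15% of all windows. The genes with CACGTG included Sycp1 and Slc25a31, which had no read, as well as Brdt, Sycp3 and Stk31, which had reads. Of the windows printed above, that of Tuba3b held TCCCGC and none held CACGTG. A match is only a description of these letters.

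Related lists were also read at low counts, and no gene of the meiosis, spermatid, X-linked, trophoblast or pluripotency lists passed the test. At an unadjusted p under 0.05 limma had 4 meiosis, 0 spermatid, 2 X-linked, 0 trophoblast and 1 pluripotency genes. The share over all genes tested was 15.5%. Of the 9 meiosis genes tested, 5 had a positive log2 fold change. The 2 X-linked genes and the pluripotency gene passed the filter only through their Dnmt1 KO values. Of 28 other meiosis genes in the table, 9 were tested, and 4 of the 16 at 0 in the controls were read in a Dnmt1 KO library. The groups of 4 of the 28 did not overlap with Dnmt1 KO higher, and 0 with Dnmt1 KO lower (7.22% and 4.33% of all genes). Among the 32 genes these counts were also 4 and 0. The 4 meiosis genes, named after their values were seen, were Prdm9, Mnd1, Tex15 and Stag3. Prdm9 had 8, 8 and 5 reads in Dnmt1 KO samples and 1, 2 and 3 in controls. Of 23 X-linked cancer-testis genes, 3 were tested, 6 of 21 at 0 in the controls were read in a Dnmt1 KO library, and 0 of 15 were read in controls only. Rhox5 and Xlr3a, chosen after their values were seen, were the 2 of these read in every Dnmt1 KO library, Rhox5 with 1, 7 and 1 reads and Xlr3a with 1, 1 and 2. Of 13 pluripotency genes, 1 was tested, and 4 of the 9 at 0 in the controls were read in a Dnmt1 KO library. Dppa5a, also chosen after its values were seen, had 2 reads in each Dnmt1 KO library and 0 in the controls. Of 18 trophoblast genes, 2 were tested, and 3 of 13 at 0 in the controls were read in a Dnmt1 KO library. Of 18 late spermatid genes, 3 were tested, and 1 of 12 at 0 in the controls was read in a Dnmt1 KO library while 3 of 14 were read in controls only. Of genes at 0 in the controls, the share read in a Dnmt1 KO library was 44.4% for pluripotency and 28.6% for X-linked genes. It was 25% for meiosis, 23.1% for trophoblast and 8.33% for spermatid genes, against 50% for the 32 genes and 12.3% for all genes. The 16 repressors of germline genes, among them E2f6, Mga, Pcgf6 and Setdb1, were all tested, and limma called 0 of them. Their median log2 fold change was -0.21, against 0.02 over all genes tested. An unadjusted p under 0.05 (limma) was found for 3 of the 16, against 15.5% of all genes tested. Rnf2, Wdr5 and Ehmt1 lay wholly lower in Dnmt1 KO samples (3 of 16, against 4.33% of all genes; adjusted p from 0.307 to 0.493, limma). Atf7ip, a partner of Setdb1, lay wholly higher, with 115, 149 and 149 in Dnmt1 KO samples and 70.2, 86.7 and 75.4 in controls (log2 fold change 0.82, SE 0.18, adjusted p = 0.0541, limma; 1 of 16, against 7.22% of all genes). These 4 were named after their values were seen. The shares over all genes include 8179 genes at 0 in all 6 libraries, which cannot lie apart, so they are low beside a list of expressed genes.

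Dnmt1 itself had values of 74.6, 36.1 and 81.2 in the Dnmt1 KO libraries and 614, 539 and 655 in the controls (log2 fold change -3.29, adjusted p = 0.00121, limma). Satellite cell markers were present in all libraries, with a summed value of 4563 to 5927 in Dnmt1 KO samples and 4348 to 5601 in controls over 8 genes. Of these, Pax7, Myf5 and Myod1 lay wholly lower in Dnmt1 KO samples (3 of 8, against 4.33% of all genes, unread ones included), and 0 lay wholly higher. Only Pax7 was called (adjusted p = 0.0441, limma), 1 of 8 tested, against 0.0953% of all tested genes called lower. Myf5 had 212, 147 and 241 in Dnmt1 KO samples and 332, 242 and 467 in controls. Des, a large part of the sum, had 2522, 2926 and 1535 in Dnmt1 KO samples and 1041, 1862 and 906 in controls. Markers of mature germ cells were all but absent: Prm1, Prm2, Tnp1 and Tnp2 were at 0 in all 6 libraries, and Acrv1 had 1 read, in Dnmt1 KO replicate 3. Of the markers of other cell types, only the macrophage list had sums that lay apart between the groups. The 9 macrophage markers summed to 72.6 to 197 in Dnmt1 KO samples and 21.9 to 38.1 in controls. Most of this was Laptm5, a lysosomal gene, with 71.7, 180 and 67.7 in Dnmt1 KO samples and 35.1, 20 and 20.7 in controls. Laptm5 was called higher (1 of 3 tested, against 1.67% of all tested genes). Without it the sums were 4.92 to 17.1 in Dnmt1 KO samples and 1.9 to 3.46 in controls, from Cd68 and Fcer1g and from 1 read of Csf1r in a control. The other 5 markers, Ptprc, Tyrobp, C1qa, C1qb and Emr1, were at 0 in all 6 libraries. The 8 fibro-adipogenic progenitor markers, for the stromal cells of muscle, summed to 690 to 1132 in Dnmt1 KO samples and 375 to 693 in controls. Col1a1 and Gsn were called higher (2 of 6 tested, against 1.67% of all tested genes). Lum was at 0 in all 6 libraries. Pdgfra was at 1.23 to 8.6 in Dnmt1 KO samples and 0.952 to 9.03 in controls. Col3a1 (469, 488 and 399 in Dnmt1 KO samples, 296, 489 and 329 in controls), Dcn, Ly6a and Mfap5 also overlapped between the groups. The 10 myocyte markers summed to 839 to 4138 in Dnmt1 KO samples and 391 to 10654 in controls, the highest being control replicate 2. The 5 endothelial markers summed to 3.69 to 10 in Dnmt1 KO samples and 2.86 to 14 in controls. The part of these cell types in the reads of the 32 genes was not tested.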

How the data were processed

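Messenger RNA was measured in 3 Dnmt1 KO and 3 control samples. The submitters' processing notes name TopHat for alignment, featureCounts for counting and the build mm10, with versions, annotation, strand setting and scaling not given. The authors deposited 1 table with a signal per gene and library: read counts times 1 factor per library. In each library 100% of values were multiples of its smallest value above 0 (tolerance 0.001), and division by that value gave the reads. The p-value and q-value columns deposited beside them come from the authors' own test.

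Values were compared as log2(value + 1) with limma 3.58.1 in R 4.3.3 (intensity trend, genes reaching 1 unit in 3 or more libraries, Benjamini-Hochberg adjustment over all genes, threshold 0.05). The fold change on this scale understates that of low genes. edgeR 4.0.16 and DESeq2 1.42.0 were run on the recovered reads of 4 libraries. These were control replicates 2 and 3 and Dnmt1 KO replicates 1 and 3. In the others 1 read was worth 1.003 units, a step that a check of the unit did not tell from 1. Reads of those libraries are still given and used for RPM, thinning and intervals. The count tests thus lack Dnmt1 KO replicate 2, which held 49 of the 97 member reads of its group. The limma script was tested on simulated data.

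Members, lists and tests were chosen with earlier results of these data known. Values are given for members read in at least 2 Dnmt1 KO libraries, tested, or read in a control. Older symbols matched 7 list genes, and 1 meiosis gene was not matched. Floors are 3 reads and intervals are 95% exact Poisson; both cover counting error only. Shared sequence was measured as 50-base words of GENCODE M21 transcripts, on both strands. Alternatives were 3 scalings, 2 filters, a pseudocount of 0.1, a detection threshold of 2 units, thinning, the replicate block and each library left out.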

Additional observations from a re-analysis of the deposited data

How the results depend on the processing

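No member was called higher or lower under any of the 15 alternative fits (0 in each), which tested 1 to 21 members with a lowest adjusted p of 0.0983 (without control replicate 2). Fits without a Dnmt1 KO library could not test the 4 members that passed the filter through Dnmt1 KO values alone. Counts over all genes moved more. Against 210 higher and 12 lower genes, there were 121 and 6 with a pseudocount of 0.1, 359 and 76 with the replicate block, 5 and 1 by edgeR and 34 and 1 by DESeq2 on 4 libraries. With a library left out there were 12 to 659 higher and 1 to 114 lower. The 11 members read in Dnmt1 KO samples only numbered 6 at a detection threshold of 2 units (5 of the 11, and Tex19.2), 10.6 after thinning, and 9 to 13 with a library left out. The 3 read in all Dnmt1 KO libraries and no control became 0 at that threshold, 2.35 after thinning, and 3 to 7 with a library left out, the extreme being 7 without Dnmt1 KO replicate 1; without control replicate 2 there were 5. The 4 read in controls only became 1 at that threshold, 2.58 after thinning, and 2 to 5 with a library left out, with 2 without control replicate 3. Thinning of the last 2 counts was chosen after seeing the data. Members with no overlap and Dnmt1 KO higher stayed at 4 in number under 3 other scalings and numbered 4 to 8 with a library left out (8 without Dnmt1 KO replicate 1). Those with Dnmt1 KO lower numbered 0 to 1 (1 without Dnmt1 KO replicate 2).

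Samples with the same replicate number correlated at -0.06, 0.22 and 0.31 in their deviations from the group means, and Dnmt1 KO replicate 1 correlated best with control replicate 2 (0.14). The numbers were therefore not taken as pairs, and the replicate block left 0 members called. At these depths 3 reads correspond to 1.48 to 3.14 RPM in a library, so a lower level in a gene without reads was not detectable.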
